A study of Mus musculus with 6 samples.

Results

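Acpp, Fkbp5 and Gata2 are 3 genes known from the luminal, androgen-responsive epithelium of the prostate, and they were followed across all 6 arrays of a mouse prostate tumour series. They were taken as the rows of the deposited table whose array annotation gives exactly 1 of these symbols, which found 1 row for each gene, 3 of 9490 genes with a row of their own. The genes were selected on their measured difference between the 2 groups, which was already known, so their values are given as a description and without a test. All cells came from TRAMP mice, a transgenic line in which the androgen-regulated probasin promoter drives a viral T antigen in prostate epithelium, and all were grown as cancer stem-like cells in serum-free medium with EGF and FGF2. TNE cells (3 samples) came from prostates with neuroendocrine tumours, from mice whose age is not given in the labels. TPIN cells (3 samples) came from mice aged 10 to 11 weeks whose prostates had intraepithelial neoplasia, so age and disease stage cannot be told apart. The group was read from the sample titles and cell type labels, since a further free-text label gives the TNE samples, too, as intraepithelial neoplasia. The labels do not say that the samples were separate animals or cultures, and p-values cover only the spread between samples, part of which may be technical.

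Luminal cells line the prostatic ducts, secrete prostatic fluid and depend on androgen. Acpp encodes prostatic acid phosphatase, a secreted and transmembrane enzyme abundant in prostatic fluid, which in mouse sensory neurons also acts as an ectonucleotidase that makes adenosine from AMP. Fkbp5 encodes FKBP51, a co-chaperone of HSP90 in steroid receptor complexes, which is induced by androgens, glucocorticoids and progestins and in turn lowers glucocorticoid receptor activity. Gata2 encodes a zinc finger transcription factor of blood progenitors and endothelium, which in human prostate cancer cells binds enhancers together with FOXA1.

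The sequence at the start of each gene is shown because the 3 genes did not differ between the groups in the same direction and because Gata2 and steroid receptors act through short DNA motifs. Windows were taken from RefSeq (build GRCm38.p6) and run from 250 bases before to 50 bases after a gene's start, in the direction of transcription. Capitals mark GATAA, the core bound by GATA factors, AGAACA, the short site of the glucocorticoid receptor, GAANNTTC, paired units of the heat shock element, and CCAAT, each searched on both strands.
Acpp, chr9:104337673-104337972, minus strand: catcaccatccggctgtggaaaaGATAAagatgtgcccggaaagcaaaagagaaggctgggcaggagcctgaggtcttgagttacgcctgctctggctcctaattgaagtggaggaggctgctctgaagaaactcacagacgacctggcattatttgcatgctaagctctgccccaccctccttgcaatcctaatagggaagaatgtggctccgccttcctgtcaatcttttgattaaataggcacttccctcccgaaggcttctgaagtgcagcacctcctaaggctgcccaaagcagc
Fkbp5, chr17:28486100-28486399, minus strand: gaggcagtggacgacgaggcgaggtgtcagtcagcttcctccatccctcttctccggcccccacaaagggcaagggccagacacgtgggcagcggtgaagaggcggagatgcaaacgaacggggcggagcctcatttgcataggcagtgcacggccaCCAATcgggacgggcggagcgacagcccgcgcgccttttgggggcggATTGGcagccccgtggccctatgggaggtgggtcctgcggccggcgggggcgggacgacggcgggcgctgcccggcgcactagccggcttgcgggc
Gata2, second start, chr6:88198414-88198713, plus strand: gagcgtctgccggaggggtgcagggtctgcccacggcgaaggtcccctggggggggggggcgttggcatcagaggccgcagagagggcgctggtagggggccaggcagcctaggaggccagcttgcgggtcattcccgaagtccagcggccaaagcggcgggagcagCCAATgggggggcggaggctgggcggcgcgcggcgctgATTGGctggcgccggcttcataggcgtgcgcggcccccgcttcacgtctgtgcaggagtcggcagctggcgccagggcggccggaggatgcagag
The Acpp window held 1 GATAA, 227 to 223 bases before the start, and none of the other motifs. The Fkbp5 window held CCAAT once on each strand, 93 to 89 and 46 to 42 bases before the start. The Gata2 window shown had the same pair of letters 83 to 79 and 45 to 41 bases before its start. The window of the other Gata2 start of RefSeq (chr6:88193641-88193940, plus strand) held none of the 4 motifs, and the array row does not separate transcripts from the 2 starts. Of 32851 RefSeq windows of this length, 25.4% held GATAA, 19% AGAACA, 7.86% GAANNTTC and 37.4% CCAAT. The Acpp window had 6 CpG dinucleotides and 52% G and C, against a median of 7 CpG over all windows, while the Fkbp5 window had 32 CpG (70.7% G and C) and the Gata2 windows 32 and 29. These matches describe the letters in the windows and are no measure of binding.

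The 3 genes separated the groups in different directions and by very different amounts. Values are log2 expression after RMA, which corrects background, gives the arrays a shared distribution and joins the probes of a row. Acpp was at 6.76, 6.41 and 6.29 on the TNE arrays, against 12.51, 12.01 and 11.74 on the TPIN arrays. The lowest TPIN array thus lay 4.97 log2 units above the highest TNE array. Fkbp5 was at 9.81, 10.45 and 10.46 on the TNE arrays, against 8.32, 9.26 and 8.92 on the TPIN arrays. All TNE arrays were higher, but the gap between the nearest arrays of the groups was 0.56, less than the range of 0.94 within TPIN. Gata2 was at 8.47, 8.75 and 8.71 on the TNE arrays, against 10.12, 10.01 and 9.89 on the TPIN arrays. Its arrays lay close together in both groups and the groups were 1.14 apart at their nearest.

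**Figure D1:**
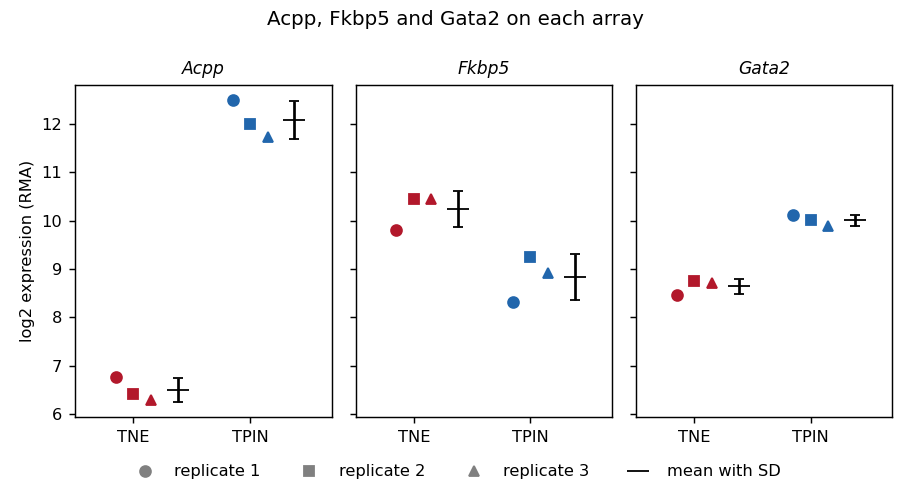
Log2 expression of Acpp, Fkbp5 and Gata2 (y axis) on the 3 TNE and 3 TPIN arrays, with 1 symbol for each array and the group mean with its SD in black. Acpp and Gata2 were lower on every TNE array and Fkbp5 was higher on every TNE array, and the span of Acpp between the groups was the widest of the 3.

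Acpp averaged 6.49 ± 0.25 in TNE and 12.09 ± 0.39 in TPIN (SD, n = 3 each), a log2 difference of -5.60, which is 48.4-fold lower in TNE on the RMA scale. No detection call comes with the values, so the low TNE level cannot be called absent and the fold is no ratio to a true zero. Fkbp5 averaged 10.24 ± 0.37 in TNE and 8.83 ± 0.47 in TPIN (SD, n = 3 each), a difference of 1.41 or 2.66-fold higher in TNE. Gata2 averaged 8.64 ± 0.15 in TNE and 10.01 ± 0.11 in TPIN (SD, n = 3 each), a difference of -1.36 or 2.57-fold lower in TNE. Ordered by difference over all genes, Acpp was number 9 from the TPIN end, Gata2 number 1077 from that end and Fkbp5 number 722 from the TNE end. The groups did not overlap for any of the 3 genes, as was the case for 43.8% of all genes (23.3% higher in TNE, as Fkbp5 was, and 20.5% lower, as Acpp and Gata2 were), and the choice of genes already fixed that count. The pooled SD within groups was 0.13 for Gata2, and 2.3% of genes had a smaller one. For Acpp these values were 0.33 and 32.5%, and for Fkbp5 0.43 and 51.2%. Groups that do not overlap tend to have a small spread, so the choice of genes may have favoured these values too. Leaving out each array in turn moved the difference between -5.77 and -5.39 for Acpp, between 1.16 and 1.62 for Fkbp5 and between -1.42 and -1.28 for Gata2. The array with the highest Acpp of its group had the lowest Fkbp5 in both groups, at 12.51 and 8.32 on TPIN replicate 1 and at 6.76 and 9.81 on TNE replicate 1. The shared replicate number pairs no samples between the groups. In bulk samples, fewer cells of a type and less RNA per cell cannot be told apart.

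**Figure D2:**
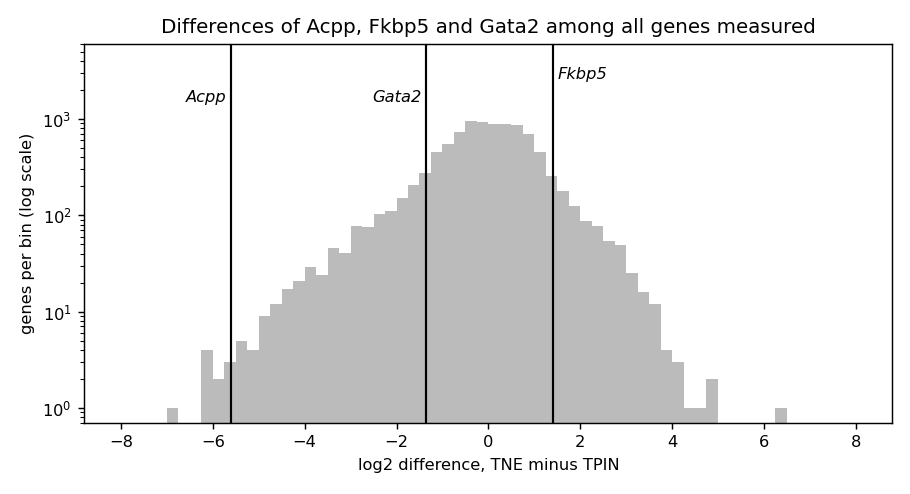
Number of genes (y axis, log scale) by log2 difference, TNE minus TPIN (x axis), in bins over all 9490 genes, with lines at the 3 genes. Acpp (-5.60) lay in the sparse tail toward TPIN, while Gata2 (-1.36) and Fkbp5 (1.41) lay on the shoulders of the distribution.

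Other genes of the prostate luminal state passed in both directions, and most of their differences were negative, as those of Acpp and Gata2 were. Of 42 luminal markers 9 had a row, and of these 1 rose in TNE, 2 fell and 6 did not pass, where 20.5% of all genes passed, 10.3% higher and 10.2% lower in TNE (limma, adjusted p under 0.05). The share of the list that passed was 33.3%, and 7 of its 9 differences were negative with a median of -0.55. At an unadjusted p under 0.05 there were 4 lower and 2 higher. The mean of the 9 genes hardly differed, at 8.29, 7.63 and 7.77 on the TNE arrays, against 7.92, 8.22 and 7.56 on the TPIN arrays. Cd24a, a surface glycoprotein of luminal cells, was at 10.72 ± 0.90 in TNE and 4.38 ± 0.11 in TPIN, the opposite direction to Acpp (limma adjusted p = 0.000378). Steap2 and Steap1, metalloreductase-family proteins of the prostate epithelial membrane, fell to 7.84 ± 1.74 and 7.13 ± 1.27 in TNE, against 11.34 ± 0.93 and 9.52 ± 0.80 in TPIN (limma adjusted p = 0.0270 and 0.0416). Both calls were lost without TNE replicate 2, TPIN replicate 1 or TPIN replicate 2, and that of Steap1 also without TNE replicate 3. Foxa1, the pioneer factor that works with Gata2, was at 8.64, 8.16 and 10.98 on the TNE arrays, against 7.33, 6.98 and 7.12 on the TPIN arrays. It did not pass (limma adjusted p = 0.0597), but it did without TNE replicate 3, where 2 luminal genes rose. Foxa1 also passed with dim rows left out, where 1 luminal gene rose because that filter removed Cd24a. The luminal keratins Krt8 and Krt18 were at 7.59 ± 0.26 and 7.60 ± 0.15 in TNE, against 7.92 ± 0.06 and 8.27 ± 0.14 in TPIN. Neither keratin passed (limma adjusted p = 0.378 and 0.0967). Hoxb13 and Pbsn were not analysed here. The word luminal therefore stands for what the 3 genes are known for and not for a state that these arrays show.

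Markers of stroma were lower in TNE, as Acpp and Gata2 were. Of 20 fibroblast and smooth muscle markers 18 had a row, and 13 of these fell (72.2%, against 10.2% of all genes). The other 5 did not pass, and no difference was positive. Their mean was 7.62, 7.58 and 8.38 on the TNE arrays, against 11.13, 11.24 and 11.34 on the TPIN arrays. Lum, Postn and Dpt, all proteins of the matrix that fibroblasts make, were 112-fold, 66.9-fold and 36.2-fold lower in TNE (limma adjusted p = 0.00113, 0.00124 and 0.00150), beside 48.4-fold for Acpp. Endothelial markers, a cell type that uses Gata2, were measured for 6 of 17 genes. Of these 66.7% passed, against 20.5% of all genes. Eng, Cd34 and Flt1 fell, and Cdh5, the cadherin of endothelial junctions, rose to 8.40 ± 0.53 in TNE, against 6.78 ± 0.17 in TPIN. The call of Cd34 was lost without any 1 of 4 arrays, and that of Flt1 without any 1 of 5 arrays, with the arrays quantile-normalized again and with median centring. Most neuroendocrine markers moved the other way, as Fkbp5 did, with 7 differences positive and 2 negative. Of 24 markers 9 had a row, 4 rose (Uchl1, Syt1, Elavl4 and Snap25) and none fell (limma). Of those measured 44.4% rose, against 10.3% of all genes. At an unadjusted p under 0.05 there were 6 higher and 1 lower. The mean of the 9 was 8.62, 9.62 and 9.78 on the TNE arrays, against 8.19, 7.44 and 7.57 on the TPIN arrays. Only Uchl1, a neuronal ubiquitin hydrolase, kept its call whichever array was left out. Of the genes that did not pass, Eno2 and Ncam1 had the highest means. Eno2 was lower on every TNE array, at 9.53, 9.42 and 8.74, against 10.30, 9.77 and 9.98 on the TPIN arrays (limma adjusted p = 0.110). The difference of Ncam1 was 0.04 (limma adjusted p = 0.963). None of the 5 measured of 16 basal cell markers passed (limma), where 20.5% of all genes did. At an unadjusted p under 0.05, 1 basal marker was higher and 1 lower. Of 18 mast and other blood cell markers 3 had a row, and 1 of these passed (33.3%, against 20.5% of all genes). It was Kit, the stem cell factor receptor that Gata2-dependent mast cells need, 6.02-fold higher in TNE (limma adjusted p = 0.0223). The call of Kit was lost without TNE replicate 2, TPIN replicate 1 or TPIN replicate 2. The part of these markers in the values of Acpp, Fkbp5 and Gata2 was not tested.

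Fkbp5 was higher in TNE beside several of its partners in the HSP90 cycle. Of 21 measured genes for steroid receptors, their chaperones and coregulators, 5 rose, 16 did not pass and none fell (limma), 16 had a positive difference, and at an unadjusted p under 0.05 there were 10 higher and 1 lower. The share that passed, 23.8%, was close to the 20.5% of all genes. All of that share was higher in TNE, where 10.3% of all genes were higher. The median difference was 0.77, against -0.02 for all genes. Fkbp4, which encodes FKBP52, the co-chaperone that competes with FKBP51 for HSP90 and favours receptor activity, was at 11.91, 11.75 and 11.28 on the TNE arrays, against 9.81, 9.86 and 10.30 on the TPIN arrays. It was 3.15-fold higher in TNE (limma adjusted p = 0.00931) and kept its call without any 1 array. Hsp90aa1, the inducible HSP90, and Hsph1, a large HSP70-family chaperone, were each 2.75-fold higher, and Ppid, the cyclophilin co-chaperone, and Ahsa1, an activator of the HSP90 ATPase, were 2.02-fold and 2.00-fold higher (limma adjusted p = 0.0171, 0.0152, 0.0383 and 0.0309). Without TNE replicate 1 or TPIN replicate 2 the count was 3, without TNE replicate 2 or TPIN replicate 1 it was 1, without TPIN replicate 3 it was 9, and with the arrays quantile-normalized again it was 8. Stub1, a ubiquitin ligase of chaperone clients, and Hspa4 had the highest means among those that did not pass, at 11.24 ± 0.22 and 11.53 ± 0.39 in TNE, against 10.24 ± 0.55 and 11.21 ± 0.32 in TPIN. Stub1 passed without TPIN replicate 3.

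The receptors that induce Fkbp5 did not pass where they were measured. Nr3c1, the glucocorticoid receptor, was at 10.06, 9.68 and 9.94 on the TNE arrays, against 10.47, 10.37 and 10.58 on the TPIN arrays, a difference of -0.58 (limma adjusted p = 0.138). Its groups did not overlap, and its direction was opposite to that of Fkbp5. Pgr, the progesterone receptor, was at 9.79, 11.23 and 6.44 on the TNE arrays, against 10.74, 10.44 and 6.63 on the TPIN arrays (limma adjusted p = 0.957). Its arrays differed far more within the groups than between them. Nr3c2, the mineralocorticoid receptor, has no row of its own and was not analysed here.

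Some other genes that glucocorticoids induce fell in TNE, the opposite direction to Fkbp5. Of 21 measured response genes 5 fell, 16 did not pass and none rose (limma), and at an unadjusted p under 0.05 there were 6 lower and 1 higher. The share that passed, 23.8%, was close to the 20.5% of all genes. All of that share was lower in TNE, where 10.2% of all genes were lower. The median difference of the list was -0.75. Per1, a clock gene with a glucocorticoid response element, was at 7.97, 7.99 and 8.11 on the TNE arrays, against 9.35, 10.11 and 9.32 on the TPIN arrays. It was 2.98-fold lower in TNE (limma adjusted p = 0.0119), a call lost without TNE replicate 2. Errfi1, a feedback inhibitor of the EGF receptor, Dusp1, a phosphatase of MAP kinases, Cebpd, a transcription factor, and Crispld2, a secreted protein, were 4.32-fold, 2.82-fold, 2.91-fold and 2.87-fold lower (limma adjusted p = 0.00683, 0.0153, 0.0206 and 0.0143). Dusp1 lost its call without TNE replicate 2 or TPIN replicate 1, and Cebpd without any 1 of TNE replicates 2 and 3 and TPIN replicates 1 and 2. Tsc22d3, which encodes the glucocorticoid-induced leucine zipper, was at 7.52 ± 0.21 in TNE and 7.79 ± 0.14 in TPIN (limma adjusted p = 0.457). Sgk1, a kinase induced by the same receptor, was at 10.79, 9.96 and 7.29 on the TNE arrays, against 10.60, 9.92 and 10.57 on the TPIN arrays (limma adjusted p = 0.374), so 1 TNE array stood below the rest. The metallothioneins Mt1 and Mt2 did not pass either, at 12.23 ± 0.64 and 13.04 ± 0.47 in TNE, against 12.43 ± 0.30 and 13.51 ± 0.25 in TPIN. Leaving out TNE replicate 2 left 2 genes that fell, leaving out TPIN replicate 1 left 3, and leaving out TPIN replicate 3 gave 1 that rose.

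**Figure D3:**
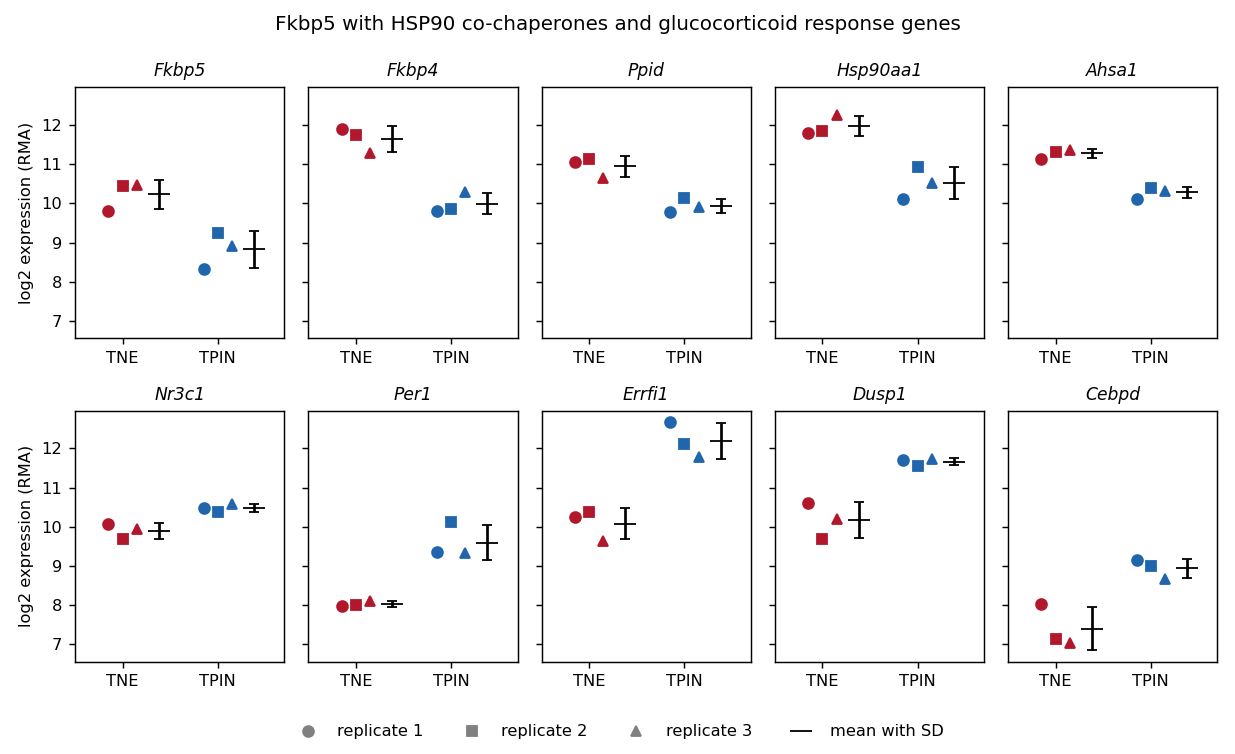
Log2 expression (y axis) on the 3 TNE and 3 TPIN arrays of Fkbp5, 4 genes of the HSP90 cycle, the glucocorticoid receptor gene Nr3c1 and 4 glucocorticoid response genes, with the group mean and SD in black. Fkbp5, Fkbp4, Ppid, Hsp90aa1 and Ahsa1 were higher on every TNE array, and Nr3c1, Per1, Errfi1, Dusp1 and Cebpd were lower on every TNE array.

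Androgen response genes, a class that includes Fkbp5, passed in both directions. Of 27 measured genes 6 rose, 4 fell and 17 did not pass, and the median difference was 0.02 (calls by limma). The share that passed was 37%, against 20.5% of all genes. Mboat2, a lysophospholipid acyltransferase, was at 10.94 ± 0.37 in TNE and 6.36 ± 0.78 in TPIN (limma adjusted p = 0.00113), and Steap4, a metalloreductase, at 7.43 ± 0.96 in TNE and 11.31 ± 0.63 in TPIN (limma adjusted p = 0.00373). Both kept their calls without any 1 array. Herc3, a HECT-family protein, and Tpd52, a vesicle trafficking protein, were 3.51-fold and 2.50-fold higher in TNE. Pmepa1, a negative regulator of TGF-beta signalling, and Ptger4, a prostaglandin E receptor, were 4.88-fold and 2.71-fold lower (limma adjusted p between 0.0160 and 0.0331 for these 4 genes). Each of these 4 calls was lost without TNE replicate 2, and also without TPIN replicate 1. Leaving out TNE replicate 1 or TPIN replicate 2 left 3 genes higher, leaving out TNE replicate 3 left 2 higher and 2 lower, and leaving out TNE replicate 2 or TPIN replicate 1 left 1 in each direction. Ank, a pyrophosphate transporter, and Elovl5, a fatty acid elongase, had the highest means among those that did not pass, at 10.80 ± 0.57 and 11.68 ± 0.43 in TNE, against 12.04 ± 0.48 and 11.76 ± 0.20 in TPIN. With arrays centred on their medians or with array weights, Ank passed.

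Within the FKBP family, peptidyl-prolyl isomerases that share a domain with FKBP51, 2 of 11 measured genes rose, 3 fell and 6 did not pass, a share of 45.5% that passed against 20.5% of all genes. Fkbp7, Fkbp14 and Fkbp9, isomerases of the endoplasmic reticulum, were 5.14-fold, 5.88-fold and 4.21-fold lower in TNE (limma adjusted p = 0.00596, 0.00717 and 0.0440). Fkbp2, also of that compartment, and the cytosolic Fkbp4 were 2.39-fold and 3.15-fold higher in TNE (limma adjusted p = 0.0435 and 0.00931). Leaving out TNE replicate 1 left Fkbp9 its call, and leaving out any other array ended it. The call of Fkbp2 was lost without any 1 of TNE replicates 1 and 2 and TPIN replicates 1 and 2, which left 1 gene higher. Fkbp1a and Fkbp8, the members of highest mean that did not pass, were at 10.62 ± 0.26 and 10.66 ± 0.14 in TNE, against 11.12 ± 0.40 and 10.96 ± 0.46 in TPIN.

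The difference of Acpp was larger than those of the 4 other acid phosphatase genes measured, which its selection on that difference made likely. Acp2, the lysosomal acid phosphatase of the same histidine phosphatase family, was at 9.67, 9.81 and 9.95 on the TNE arrays, against 9.98, 10.34 and 10.35 on the TPIN arrays (difference -0.41, limma adjusted p = 0.270). Acp5, the tartrate-resistant enzyme of osteoclasts and macrophages, was at 7.98 ± 1.35 in TNE and 8.03 ± 0.21 in TPIN, and Pxylp1, a phosphatase of proteoglycan synthesis, at 8.06 ± 0.36 in TNE and 8.57 ± 0.72 in TPIN. Neither passed. Acp1, a low molecular weight tyrosine phosphatase that shares only the name, was 2.80-fold higher in TNE (limma adjusted p = 0.0232), a call lost without any 1 of TNE replicates 2 and 3 and TPIN replicates 1 and 2. It was the only 1 of 4 measured genes to pass, a share of 25% against 20.5% of all genes. None fell at an unadjusted p under 0.05 either (0 lower, 1 higher).

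Some genes that handle extracellular nucleotides, the substrate side of Acpp as an ectonucleotidase, fell with it. Of 19 measured genes 3 fell, 16 did not pass and none rose (limma), and at an unadjusted p under 0.05 there were 5 lower and 1 higher. The share that passed, 15.8%, was below the 20.5% of all genes. All of that share was lower in TNE, where 10.2% of all genes were lower. Enpp3, an ectoenzyme that cleaves ATP, was at 5.67, 5.55 and 6.43 on the TNE arrays, against 9.73, 9.60 and 8.74 on the TPIN arrays. It was 11.1-fold lower in TNE (limma adjusted p = 0.00178) and kept its call without any 1 array. Entpd1, the CD39 ectonucleotidase that makes AMP from ATP and ADP, was 7.27-fold lower (limma adjusted p = 0.0177), a call lost without TNE replicate 2, TPIN replicate 1 or TPIN replicate 2. Entpd7, an intracellular relative, was 2.59-fold lower (limma adjusted p = 0.0495), a call lost without any 1 array other than TPIN replicate 3 and with a trended, robust prior. Nt5e, the CD73 enzyme that, like Acpp, makes adenosine from AMP, was at 6.69, 6.90 and 6.31 on the TNE arrays, against 6.88, 7.01 and 7.13 on the TPIN arrays (limma adjusted p = 0.346). The groups overlapped. The nucleoside transporter Slc29a1 and the purine phosphorylase Pnp did not pass, at 11.43 ± 0.17 and 9.82 ± 0.61 in TNE, against 10.02 ± 1.61 and 10.55 ± 0.36 in TPIN. The number that fell was 1 without TNE replicate 2, TPIN replicate 1 or TPIN replicate 2, and 5 without TPIN replicate 3. It was also 1 with dim rows left out, a filter that removed Enpp3 and Entpd1 themselves. Without TNE replicate 1, 1 gene rose.

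Gata2 was lower in TNE together with Gata6 and with Zfpm2, a cofactor of GATA proteins. Of 16 measured GATA factors and partners 2 fell, 1 rose and 13 did not pass, a share of 18.8% against 20.5% of all genes, and 13 of the 16 differences were negative. Gata6, a factor of endoderm and mesoderm, was at 7.11, 7.36 and 7.62 on the TNE arrays, against 10.94, 10.63 and 9.80 on the TPIN arrays. It was 8.53-fold lower in TNE (limma adjusted p = 0.00212), and Zfpm2 was 6.55-fold lower (limma adjusted p = 0.00296). Both kept their calls without any 1 array. Gata3, a factor of luminal epithelium in breast and prostate, was at 7.26, 6.70 and 6.59 on the TNE arrays, against 7.51, 8.01 and 7.69 on the TPIN arrays (limma adjusted p = 0.0728). The groups did not overlap but the difference of -0.88 did not pass. Lmo4, a LIM-only adaptor, was 2.68-fold higher in TNE (limma adjusted p = 0.0181), a call lost without TNE replicate 2. Gatad1 and Gatad2b, zinc finger proteins of chromatin complexes, were at 11.59 ± 0.07 and 10.59 ± 0.10 in TNE, against 11.75 ± 0.58 and 11.52 ± 0.78 in TPIN. Neither of them passed, though Gatad2b did without TPIN replicate 3. The number that fell was 3 without TNE replicate 1 or TPIN replicate 3. With dim rows left out it was 1, as that filter removed Zfpm2 itself.

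**Figure D4:**
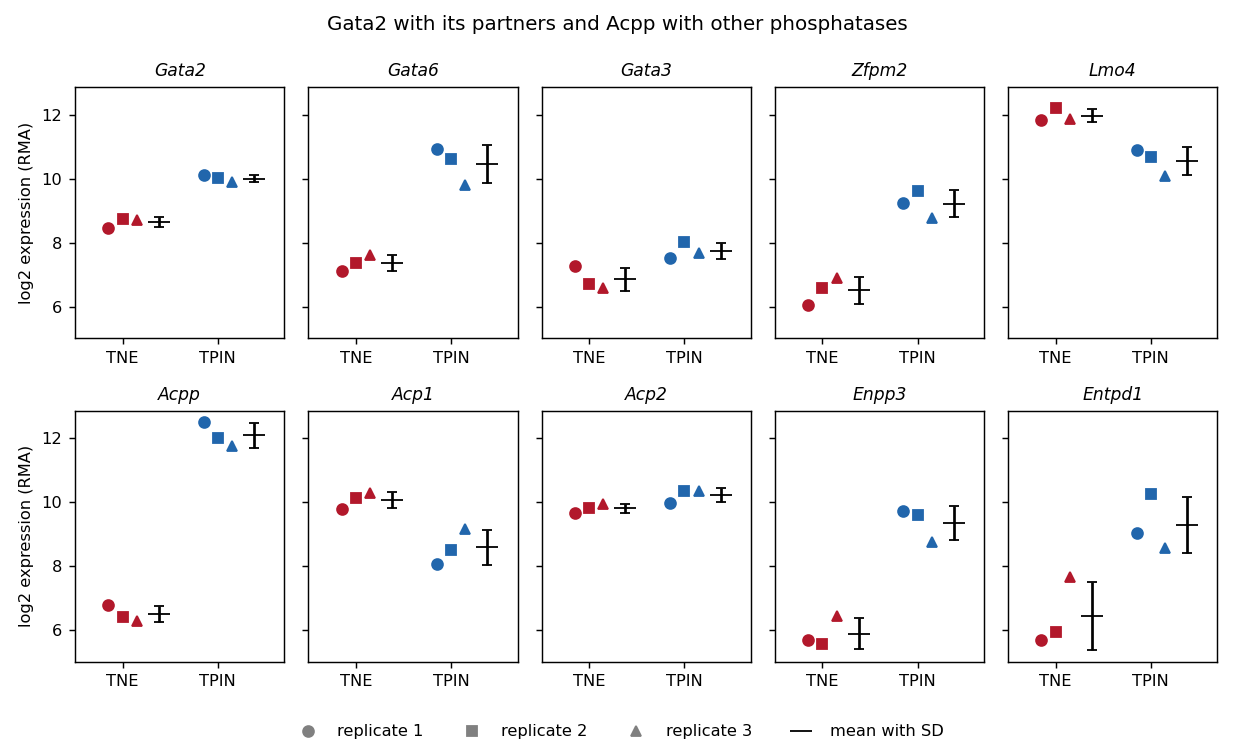
Log2 expression (y axis) on the 3 TNE and 3 TPIN arrays of Gata2 with 4 GATA factors and partners, and of Acpp with 2 other phosphatases and 2 ectoenzymes, with the group mean and SD in black. Gata6, Zfpm2, Enpp3 and Entpd1 were lower on every TNE array, as Gata2 and Acpp were, while Lmo4 and Acp1 were higher on every TNE array.

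The genes whose pattern over the 6 arrays was most like that of each member were found by Pearson correlation over all genes, leaving out predicted gene models. The arrays of a group share their cell kind, so these values mostly describe the split between the groups. For Acpp they were Slc2a10 (a glucose transporter), Ripor1, Ano3 (an anoctamin), Raet1d (a ligand of the NKG2D receptor) and P3h3 (a prolyl hydroxylase of collagen), with r between 0.9972 and 0.9991 over 6 arrays. The most opposite were Ssx2ip, Tdrkh and Wdr76, with r from -0.9997 to -0.9977. Of these genes Raet1d came nearest to the size of the Acpp difference, at 5.15 ± 0.25 in TNE and 10.97 ± 0.19 in TPIN. For Gata2 the most alike were B3gnt9 (a glycosyltransferase), Tnn (tenascin-N), Cd276 (an immune checkpoint protein), Ccn4 (a matricellular protein) and Gulp1 (an engulfment adaptor), with r between 0.9945 and 0.9997, and the most opposite Wdr90, Ipo11 (an importin) and Knop1. For Fkbp5 the most alike were Ddx39b (an RNA helicase of mRNA export), Meaf6 (a subunit of histone acetyltransferases), Mrnip, Setdb1 (a histone methyltransferase) and Etaa1 (an activator of ATR), with r between 0.9925 and 0.9987, and the most opposite Smim14, Pkd1 (polycystin) and Fam214b. Among the 5 genes most like Fkbp5 the differences ran from 0.44 for Setdb1 to 1.66 for Etaa1. A correlation above 0.95 was common for all 3 members: 4.02% of genes reached it with Acpp, 3.24% with Gata2 and 2.36% with Fkbp5.

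**Figure D5:**
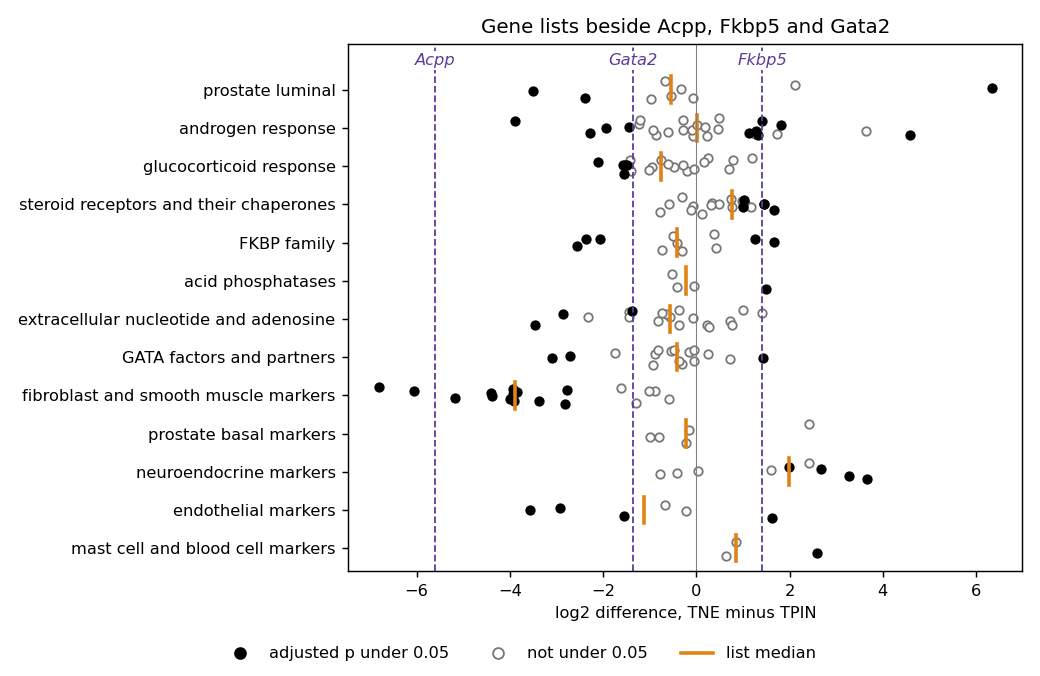
Log2 difference, TNE minus TPIN (x axis), of each measured gene of the 13 lists (rows), filled where the limma adjusted p was under 0.05, with the list median in orange and dashed lines at the 3 members. Only 2 of the 18 fibroblast and smooth muscle markers and no gene of the other lists lay beyond Acpp (-5.60) on the TPIN side.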

How the data were processed

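Biotin-labelled cDNA from total RNA was hybridised to 6 single-colour oligonucleotide arrays, per the labels. The deposited values are log2 expression, and the submitters' processing notes name RMA for them without a version. The table holds 10361 rows, part of an array, and the rule that selected them is not given. Array medians lay between 8.82 and 9.10, and precision is limited by the number of arrays. A single symbol came with 9496 rows, while 374 had several and 491 had none. The row of highest mean was kept for 6 genes with several rows, which left 9490 genes.

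TNE and TPIN were set against each other in limma 3.58.1 (R 4.3.3; a mean per group, empirical Bayes, two-sided, Benjamini-Hochberg over all genes, threshold 0.05), tested on simulated data. Members, lists and the rule for named genes (the smallest p and highest means in each list, genes fixed by name, and the nearest patterns) were chosen with earlier results of these data known. Members were left out of the lists. Alternatives were renormalization, median centring, a filter on dim rows (the lowest 25% by mean), a trended and robust prior, array weights, averaged rows, and leaving out each array. Replicate numbers follow the order of the series and pair no samples.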

Additional observations from a re-analysis of the deposited data

How the results depend on the processing

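The differences of Acpp, Fkbp5 and Gata2 kept their direction and moved by less than the pooled SD under renormalization and median centring. With the arrays quantile-normalized again they were -5.43, 1.46 and -1.32. Leaving out 1 of 3 arrays cannot reverse a difference between groups that do not overlap. Nor can it move the difference by more than the pooled SD, so those fits are no test of the 3 members. Counts of calls depended more on the settings. Over all genes 976 rose and 965 fell, against 2246 and 2021 with array weights, and leaving out each array gave 357 to 1311 higher and 475 to 1285 lower. With array weights 4 luminal genes fell, 1 glucocorticoid response gene rose, 11 steroid receptor and chaperone genes rose and 1 fell, 3 nucleotide genes rose and 8 fell, and 2 GATA genes rose and 6 fell. Gata3, Krt18, Nr3c1, Slc29a1, Stub1 and Gatad2b passed with array weights. With quantile normalization 8 chaperone genes rose, and with dim rows left out 1 nucleotide gene and 1 GATA gene fell. The dim filter had itself removed Enpp3, Entpd1 and Zfpm2, and among other genes also Cd24a, Ptger4, Cdh5, Elavl4 and Kit. None of these genes was tested in that fit. Leaving out each array gave 1 to 2 luminal genes higher and 0 to 2 lower, 1 to 6 androgen response genes higher and 1 to 4 lower, 0 to 1 glucocorticoid response genes higher and 2 to 6 lower, 1 to 9 chaperone genes higher, 1 to 2 FKBP genes higher and 2 to 3 lower, 0 to 1 acid phosphatases higher, 0 to 1 nucleotide genes higher and 1 to 5 lower, and 0 to 1 GATA genes higher and 2 to 3 lower. Fewer samples were left in these fits, and the cause of the other shifts was not tested. No paired analysis was possible because the labels give no replicate numbers. Signal over background is not in the table, so the low Acpp values in TNE have no detection limit beside them.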

Other observations

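Esr1, the oestrogen receptor gene, was on the list of steroid receptors beside Pgr, and it is named here for its values, outside the rule. It was at 11.80, 12.60 and 7.31 on the TNE arrays, against 10.29, 10.41 and 7.88 on the TPIN arrays. Pgr, a classical target of that receptor in breast and uterus, was at 9.79, 11.23 and 6.44 on the TNE arrays, against 10.74, 10.44 and 6.63 on the TPIN arrays. In each group both genes were lowest on replicate 3, a number that pairs no samples between the groups.

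Homer2, an androgen response gene that encodes a synaptic scaffold protein, was likewise named for its values. It was at 5.63, 10.31 and 10.09 on the TNE arrays, against 5.24, 4.88 and 4.99 on the TPIN arrays (limma adjusted p = 0.0547), so 1 TNE array lay near the TPIN level.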
